A study of Homo sapiens with 5 samples.

Results

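The genes described here are 35 genes that act in protein folding and protein quality control in the endoplasmic reticulum (ER), the compartment in which secreted and membrane proteins are made. They were taken from a named list of ER chaperones, components of ER-associated degradation, and the sensors and regulators of the unfolded protein response (UPR), by a rule that uses no measured value. All 35 symbols were found among the 57773 genes of the deposited table, and 34 had a mean of at least 1 TPM over the 5 libraries, as did 14180 genes in all. TPM is a library-wide share of transcripts corrected for transcript length, so levels of different genes can be set side by side. The remaining gene, DERL3, had 0.2 TPM with native miR-17, 0.1 TPM with methylated miR-17 and 0.1 TPM in the negative control, and was listed at 0 in both let-7a libraries.

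The cells were HCT116, a human colorectal carcinoma line, in a derivative in which Dicer, the nuclease that releases mature microRNAs from their precursors, was knocked out. The same background was shared by all 5 libraries, and the labels do not say whether it was 1 clone. The 5 groups were cells transfected with let-7a in its native or its methylated form (19A), with miR-17 in its native or its methylated form (13A), or with a negative control, and each group was 1 library of total RNA depleted of ribosomal RNA. The study's labels set methylated against unmethylated microRNAs, without giving the kind of methyl group. Because each group was a single library, differences carry neither a replicate check nor a p-value or standard deviation. All differences are differences of log2(TPM + 1), the first named library minus the second, and a difference is called by its size alone, at 1.5-fold or 2-fold in TPM + 1. In bulk RNA, a change in fewer cells and a smaller change in every cell cannot be told apart.

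The mature microRNAs are shown because the comparisons turn on them. Capitals mark the seed (bases 2 to 8, the stretch that pairs with target messages) and the adenosine at the position that the label gives, position 19 of let-7a and position 13 of miR-17, counted from the 5′ end. The sequences are those of RefSeq (GRCh38.p14), and the oligonucleotides used were taken to share them.
hsa-let-7a-5p: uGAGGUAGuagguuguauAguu
hsa-miR-17-5p: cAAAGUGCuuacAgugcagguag

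As background, nascent chains enter the ER through the Sec61 channel and fold with the help of the HSP70 chaperone BiP (HSPA5), the HSP90 chaperone GRP94 (HSP90B1), the lectins calnexin and calreticulin, and the protein disulfide isomerases, which are reoxidised by ERO1. Chains that fail to fold are drawn back to the cytosol by the SEL1L and HRD1 (SYVN1) ligase complex and degraded. When unfolded chains accumulate, the sensors IRE1 (ERN1), PERK (EIF2AK3) and ATF6 act. IRE1 splices the XBP1 message, PERK phosphorylates eIF2α and so favours translation of ATF4, and ATF6 is cleaved to a transcription factor. ATF6 and XBP1 then raise chaperone and degradation genes through ER stress response elements in their promoters. Gene-level TPM reports neither XBP1 splicing nor the activation of a sensor protein.

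Calnexin RNA differed most from the control among the 34 genes: it was 2.09-fold to 2.43-fold higher in the 4 microRNA libraries. SERP1, CRELD2 and MANF were higher in all 4 as well, and ERO1L was lower in all 4. The abundant luminal chaperones, HSPA5, HSP90B1, CALR and PDIA3 among them, differed from the control by at most 0.27 on the log2 scale. Between each methylated microRNA and its native form, none of the 34 genes reached 1.5-fold.

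The libraries were alike in broad composition. Between 14173 and 14396 genes had at least 1 TPM per library, the mitochondrial share of the TPM ran between 9.36% and 12.6%, and the share of cytosolic ribosomal protein genes between 14.2% and 17.7%. The negative control had both the highest mitochondrial share, 12.6%, and the lowest ribosomal protein share, 14.2%. Leaving those genes out moved no named gene by 0.1 or more on the log2 scale. That step rescales all remaining genes of a library by the same factor, so it checks scaling only. Any other part of these shares in the differences from the control was not tested. The 35 genes together held 0.899% of the TPM with native let-7a, 0.902% with its methylated form, 0.934% with native miR-17, 0.835% with its methylated form and 0.809% in the negative control. DICER1 had between 11.2 and 15.9 TPM, which does not check the knockout, since gene-level TPM does not show where the gene was disrupted and no library of the parent line was analysed here. Of 10 markers of colorectal epithelium, 6 reached 1 TPM in a library, EPCAM among them at 524.4 to 618.8 TPM, while VIL1, CDX1 and CEACAM5 were listed at 0 in all 5 libraries. The 10 epithelial markers summed to between 4469.3 and 5901.1 TPM in the microRNA libraries and to 4189.2 TPM in the control. Of 6 fibroblast markers 2 reached 1 TPM, with sums of 11.8 to 17.2 TPM and DCN listed at 0. Of 6 blood and immune markers 2 reached 1 TPM, with sums of 4.3 to 5.5 TPM and PTPRC and HBB listed at 0, and none of the 3 endothelial markers found did, with sums of 0.3 to 1.2 TPM.

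The 4 microRNA libraries were each set against the same control library, so a level particular to that library enters all 4 comparisons, and a difference shared by the 4 cannot be told apart from it. In the native let-7a library, 4 of the 34 genes were at least 1.5-fold higher than in the control, where 4.20% of all genes tested were, and 1 was at least 1.5-fold lower, against 3.86% of all genes. With methylated let-7a, 4 were higher, against 3.34% of all genes, and 0 were lower, against 2.98%. With native miR-17, 4 were higher, against 6.50%, and 1 was lower, against 5.93%. With methylated miR-17, 3 were higher, against 5.33%, and 1 was lower, against 10.1%. The 1.5-fold higher genes were CANX and SERP1 in all 4 comparisons, CRELD2 in all but methylated miR-17, MANF in all but methylated let-7a, and EDEM3 with methylated let-7a. The 1 gene past 1.5-fold lower was ERO1L each time.

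Smaller differences leaned upward in 3 of the 4 comparisons. With native let-7a, 28 of the 34 genes were above the control, where 49.9% of all genes were, with a median difference of 0.13 against 0.0 over all genes. With methylated let-7a, 25 were above it, against 41.0% of all genes, with a median of 0.14 against -0.04. With native miR-17, 25 were above it, against 51.5%, with a median of 0.18 against 0.02. With methylated miR-17, 17 were above and 17 below the control, where 42.1% of all genes were above, with a median of -0.01 against -0.06, which became 0.0541 when differences were centred on the median of all genes. Leaving out CANX, SERP1, CRELD2, MANF and ERO1L, which were chosen after their values were seen, left medians of 0.12, 0.12, 0.18 and -0.035 in the same 4 comparisons. The control was below all 4 microRNA libraries in 14 of the 34 genes, where it was so in 21.1% of all genes, and above all 4 in 3 genes (PDIA4, ERO1L and EIF2AK3), where it was so in 26.5%.

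**Figure D1:**
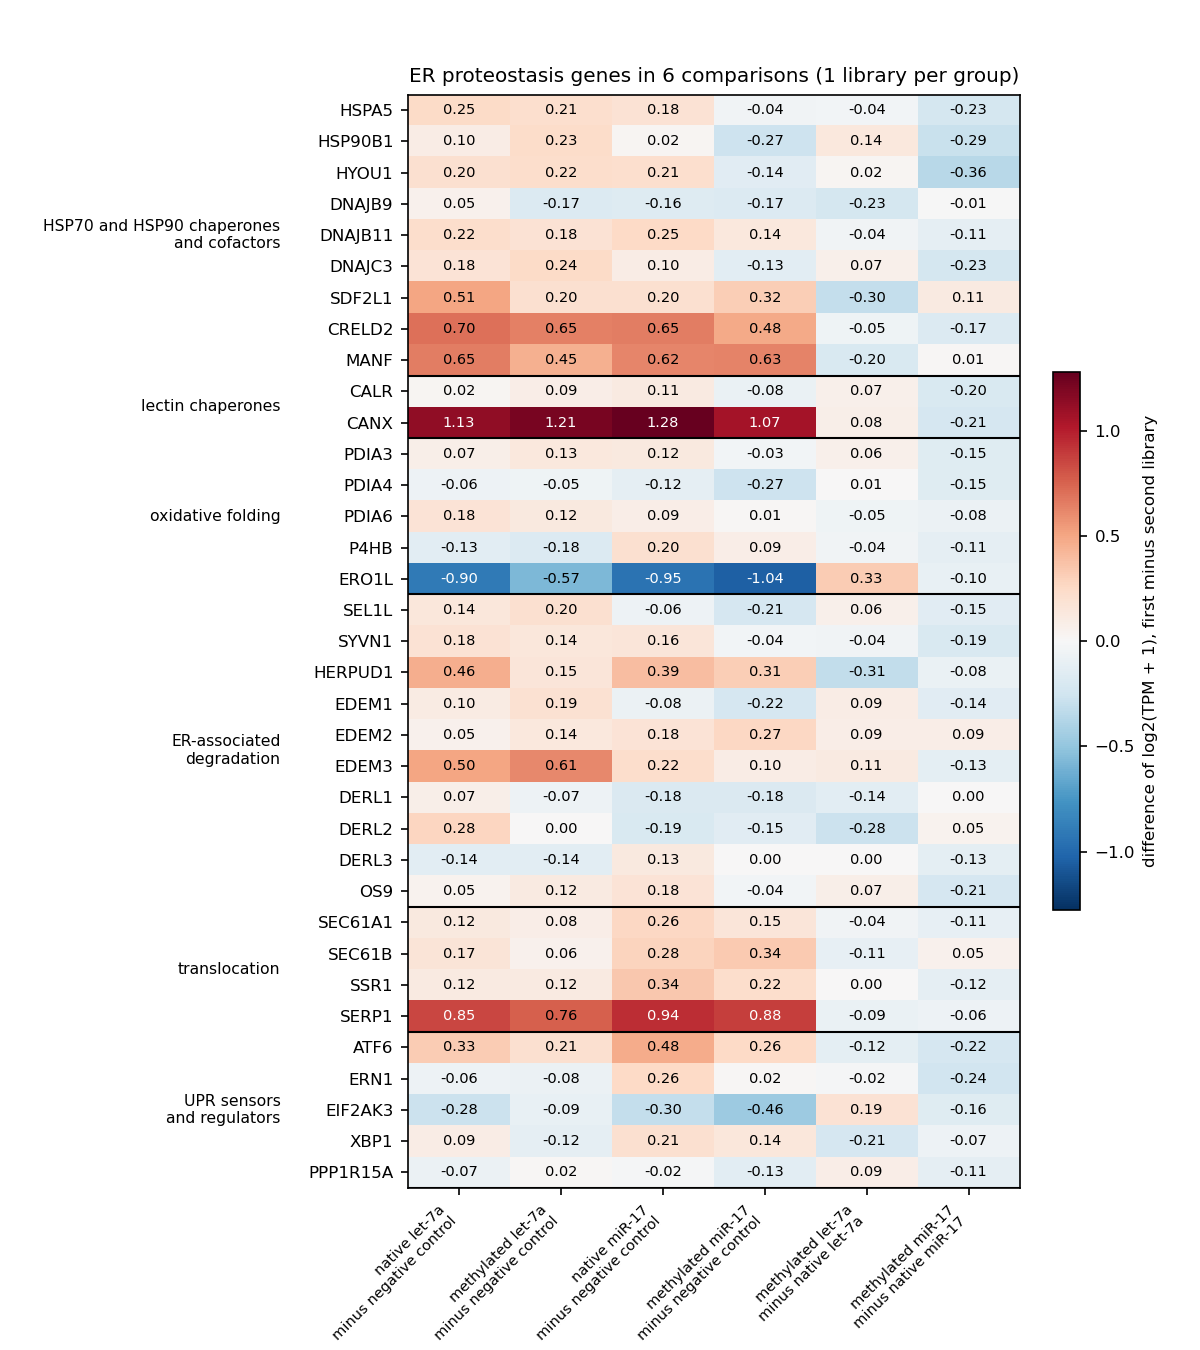
Difference of log2(TPM + 1) of all 35 genes (rows, by role) in the 6 comparisons (columns, first named library minus second), printed and coloured from blue (lower) to red (higher), with 1 library per group. CANX, SERP1, CRELD2 and MANF are red in the 4 comparisons with the control and ERO1L is blue, while the 2 columns of methylated minus native form hold values between -0.36 and 0.33. DERL3 is shown although its mean was below 1 TPM.

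**Figure D2:**
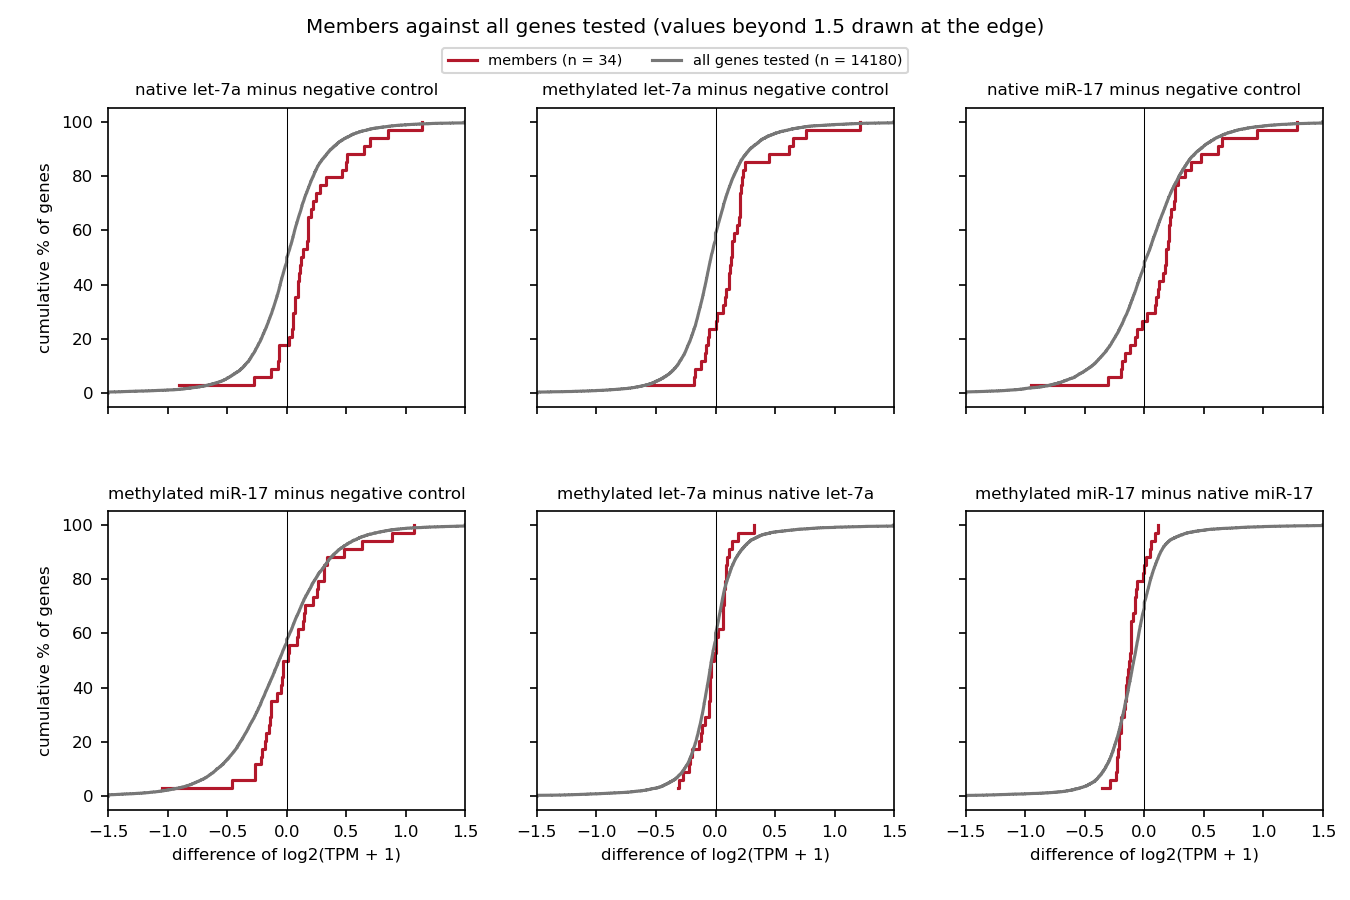
Cumulative percentage of genes (vertical axis) at or below each difference of log2(TPM + 1) (horizontal axis) for the 34 genes (red) and the 14180 genes tested (grey), 1 panel per comparison. The red curve lies to the right of the grey one around 0 in the comparisons of native let-7a, methylated let-7a and native miR-17 with the control, where the medians are 0.13, 0.14 and 0.18.

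Promoter sequences are shown next because the ER stress response element is what many of these genes are known to share. The elements searched on both strands were ERSE (CCAAT and CCACG with 9 bases between them), ERSE-II (ATTGG and CCACG with 1 base between them) and the UPRE core (TGACGTGG), in RefSeq windows of 250 bases before to 50 after a gene start (GRCh38.p14). Of the 35 genes, 32 had a window, and PDIA3, DERL1 and DERL3 had none. ERSE was found in 8 of the 32 genes (25.0%), HSPA5, HSP90B1, CRELD2, CALR, CANX, PDIA6, SERP1 and XBP1, and in 25 of 27305 genes with a window (0.0916%). ERSE-II was found in HYOU1, SDF2L1 and HERPUD1 (9.38%), and in 19 of all genes (0.0696%). The UPRE core was found in HYOU1 alone (3.12%), and in 253 of all genes (0.927%). Thus 32.0% of the genes with ERSE and 15.8% of those with ERSE-II in their windows belong to the 35. Of the 10329 tested genes with a window, 0.155% had ERSE and 0.136% had ERSE-II. Since many of the 35 were already known to share the element, these shares describe the list and test nothing.

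The ERSE matches follow on the strand of the gene, with 5 bases on either side and the fixed letters CCAAT and CCACG in capitals, or ATTGG and CGTGG where the element lies in the opposite orientation. They began between positions -232 and -52 relative to a gene start, save that the CANX match began at -189, -151 and -9 relative to its 3 annotated starts in whose windows it lies.
HSPA5 (chr9:125241386-125241414, minus strand): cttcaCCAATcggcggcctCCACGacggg
HSP90B1 (chr12:103930211-103930239, plus strand): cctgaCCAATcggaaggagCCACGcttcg
HSP90B1, second match (chr12:103930316-103930344, plus strand): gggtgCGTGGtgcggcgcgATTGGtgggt
CANX (chr5:179698773-179698801, plus strand): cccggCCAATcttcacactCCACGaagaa
SERP1 (chr3:150546705-150546733, minus strand): tcatgCGTGGagacagcgaATTGGtgttt
CRELD2 (chr22:49918549-49918577, plus strand): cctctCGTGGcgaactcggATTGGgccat
CALR (chr19:12938379-12938407, plus strand): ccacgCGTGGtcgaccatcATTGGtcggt
PDIA6 (chr2:10812848-10812876, minus strand): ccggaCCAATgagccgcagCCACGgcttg
XBP1 (chr22:28800598-28800626, minus strand): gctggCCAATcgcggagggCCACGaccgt

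The ERSE-II matches are shown in the same way, with capitals for the fixed letters. In HYOU1 the UPRE core overlaps the first ERSE-II match at CGTGG.
HYOU1 (chr11:119057375-119057395, minus strand): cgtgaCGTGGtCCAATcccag
HYOU1, second match (chr11:119057269-119057289, minus strand): tgggaCGTGGtCCAATgagta
SDF2L1 (chr22:21642109-21642129, plus strand): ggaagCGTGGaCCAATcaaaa
HERPUD1 (chr16:56932020-56932040, plus strand): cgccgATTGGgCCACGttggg

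The 250 bases before a CANX start and before the HSPA5 start are given whole, with each CCAAT and CCACG in capitals on either strand, because CANX differed most from the control and HSPA5, whose promoter holds 4 CCAAT boxes and 1 CCACG, is the standard reporter gene of the response. The same stretch before the ERO1L start held neither CCAAT nor CCACG on either strand.
CANX (chr5:179698679-179698928, plus strand): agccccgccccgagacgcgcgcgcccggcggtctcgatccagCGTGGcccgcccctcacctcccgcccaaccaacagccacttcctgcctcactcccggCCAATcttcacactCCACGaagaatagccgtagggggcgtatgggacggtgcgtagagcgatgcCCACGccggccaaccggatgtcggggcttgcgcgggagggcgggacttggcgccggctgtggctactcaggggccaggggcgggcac
HSPA5 (chr9:125241344-125241593, minus strand): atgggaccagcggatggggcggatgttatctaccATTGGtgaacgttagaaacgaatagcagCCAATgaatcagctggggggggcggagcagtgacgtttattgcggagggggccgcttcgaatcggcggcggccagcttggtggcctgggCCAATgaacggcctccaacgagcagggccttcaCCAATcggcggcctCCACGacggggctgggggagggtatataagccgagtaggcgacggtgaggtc

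The 11 genes with ERSE or ERSE-II had median differences from the control of 0.25 with native let-7a, 0.21 with its methylated form, 0.21 with native miR-17 and 0.14 with its methylated form. The 21 without had medians of 0.12, 0.12, 0.18 and -0.035 in that order. All 11 were above the control with native let-7a, 10 with its methylated form, 11 with native miR-17 and 7 with its methylated form. Of the 21 without, 15, 14, 13 and 10 were above it in that order. The shares of all genes tested above it were 49.9%, 41.0%, 51.5% and 42.1%. The spread within the 11 was wide: HSP90B1 lay lowest, at a mean difference of 0.02 over the 4 microRNA libraries, and CANX highest, at 1.17. Of the 5 genes that stood furthest from the control, CANX, SERP1 and CRELD2 had an exact match in the window, and MANF and ERO1L did not. Copies of the elements that differ from the fixed letters were not searched, so a gene without a match may still hold one. Of the genes outside the list, 8 tested genes with ERSE had a median of the same mean difference of -0.07, and 11 with ERSE-II had -0.09.

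Neighbouring genes that share an element were not always on the same side of the control. The SERP1 match also lies in the window of EIF2A, which starts nearby and encodes a translation initiation factor. EIF2A had 154.7, 163.3, 159.5 and 159.7 TPM with native let-7a, its methylated form, native miR-17 and its methylated form, and 167.8 TPM in the control, so that it was below the control in all 4, where SERP1 was above. The CRELD2 match also lies in the window of ALG12, a mannosyltransferase of glycan assembly, which had 18.6, 16.6, 18.2 and 16.6 TPM in the same 4 libraries and 15.8 TPM in the control.

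Among the HSP70 and HSP90 chaperones and their cofactors, 9 of 9 genes were above the control with native let-7a, 8 with its methylated form, 8 with native miR-17 and 4 with its methylated form. The shares of all genes tested above it were 49.9%, 41.0%, 51.5% and 42.1% in that order. The medians of the 9 genes were 0.22, 0.22, 0.20 and -0.04 in that order. HSPA5, the ER HSP70 that binds unfolded chains and holds the sensors inactive, had 1188.0 TPM with native let-7a, 1156.8 with its methylated form, 1133.8 with native miR-17, 968.8 with its methylated form and 999.1 in the control. It was thus above the control in 3 libraries and slightly below it with methylated miR-17, with differences of 0.25, 0.21, 0.18 and -0.04, the last of which became 0.0205 when centred on the median of all genes. HSP90B1, the ER HSP90, had 983.8, 1082.2, 934.3 and 764.9 TPM in the same 4 libraries and 920.7 TPM in the control, lowest with methylated miR-17. HYOU1, a large HSP70 relative that exchanges nucleotide on HSPA5, had the same shape, with differences of 0.20, 0.22, 0.21 and -0.14. DNAJC3, a J-domain cochaperone, had differences of 0.18, 0.24, 0.10 and -0.13.

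CRELD2 and MANF, small secreted or ER-retained proteins known as ER stress-inducible, stood above the rest of their role group. CRELD2 had 44.6 TPM with native let-7a, 42.9 with its methylated form, 43.0 with native miR-17, 38.1 with its methylated form and 27.0 in the control. All 4 microRNA libraries were above the control, by 1.63-fold, 1.57-fold, 1.57-fold and 1.40-fold in TPM + 1. MANF, a cofactor of HSPA5, had 229.7, 200.2, 225.1 and 227.3 TPM in the same 4 libraries and 146.1 TPM in the control. These were 1.57-fold, 1.37-fold, 1.54-fold and 1.55-fold above the control, with methylated let-7a the nearest to it. SDF2L1, which works with DNAJB11, was above the control in all 4 by 0.51, 0.20, 0.20 and 0.32, and DNAJB11 itself by 0.22, 0.18, 0.25 and 0.14. DNAJB9, a J-domain protein that represses IRE1, was within 0.17 of the control in all 4.

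The lectin chaperones calreticulin and calnexin bind the same glycans, the one soluble in the lumen and the other in the membrane, and their RNAs differed in their relation to the control. CALR, the most abundant of the 35 genes, had 1606.8 TPM with native let-7a, 1682.5 with its methylated form, 1711.3 with native miR-17, 1490.8 with its methylated form and 1581.1 in the control. Its differences from the control were 0.02, 0.09, 0.11 and -0.08. CANX had 631.3 TPM with native let-7a, 666.2 with its methylated form, 698.1 with native miR-17, 602.4 with its methylated form and 287.2 in the control. The 4 microRNA libraries lay close together and well above the control. The folds were 2.19, 2.32, 2.43 and 2.09 in TPM + 1. CANX was the 1 gene of the 34 past 2-fold higher with native let-7a (1.21% of all genes), its methylated form (1.17%), native miR-17 (1.68%) and its methylated form (1.30%). Set against the mean of both miR-17 libraries instead of the control, native let-7a differed by -0.04 in CANX, and methylated miR-17 set against both let-7a libraries differed by -0.11.

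**Figure D3:**
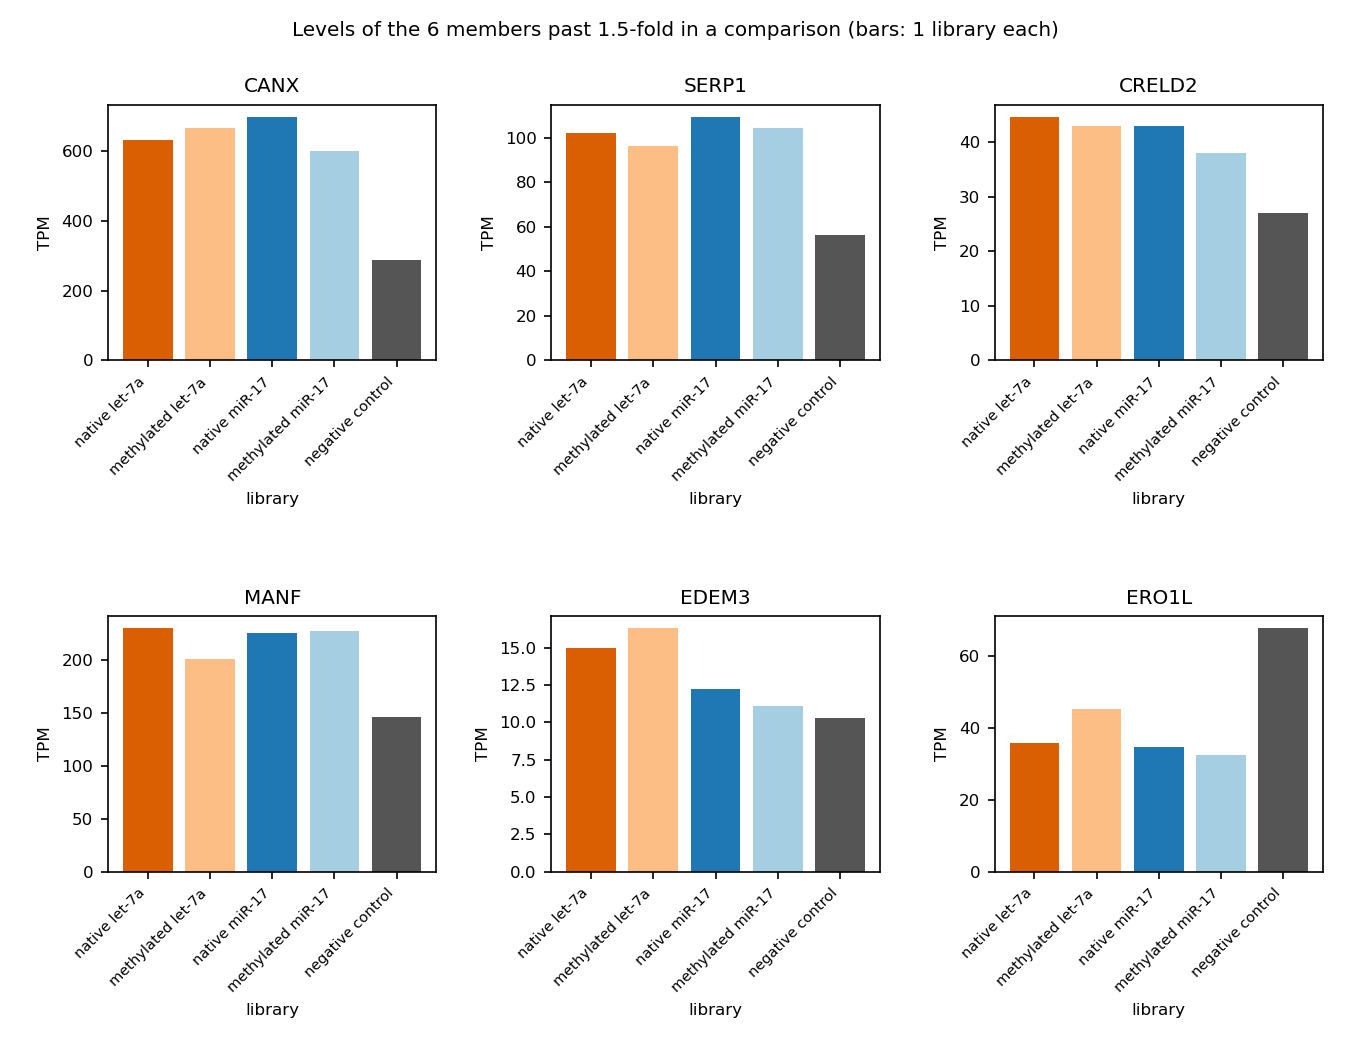
TPM of CANX, SERP1, CRELD2, MANF, EDEM3 and ERO1L in the 5 libraries (bars, 1 library each, from 0), with the negative control at the right. The control bar is the lowest in CANX (287.2 TPM), SERP1, CRELD2, MANF and EDEM3 and the highest in ERO1L (67.9 TPM).

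In oxidative folding the isomerases stayed near the control and the oxidase did not. P4HB, the classic protein disulfide isomerase, had 992.8 TPM with native let-7a, 962.8 with its methylated form, 1251.0 with native miR-17, 1155.8 with its methylated form and 1088.2 in the control. Both let-7a libraries were below the control, by -0.13 and -0.18, and both miR-17 libraries were above it, by 0.20 and 0.09. PDIA3, which works with the lectins on glycoproteins, PDIA4 and PDIA6 differed from the control by -0.27 to 0.18. ERO1L, the oxidase that passes electrons from the isomerases to oxygen and that is also known as a hypoxia-responsive gene, had 35.9 TPM with native let-7a, 45.3 with its methylated form, 34.7 with native miR-17, 32.4 with its methylated form and 67.9 in the control. It was 1.87-fold, 1.49-fold, 1.93-fold and 2.06-fold lower than in the control in TPM + 1. With methylated miR-17 it was the 1 gene of the 34 past 2-fold lower, where 2.38% of all genes were. With the mean of both miR-17 libraries in place of the control, native let-7a differed by 0.10 in ERO1L.

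The translocation genes were above the control in all 4 microRNA libraries, 4 of 4 genes each time, with medians of 0.15, 0.10, 0.31 and 0.28. SERP1, a small membrane protein bound to the Sec61 channel that protects newly made membrane proteins during stress, had 102.3 TPM with native let-7a, 96.2 with its methylated form, 109.2 with native miR-17, 104.5 with its methylated form and 56.3 in the control. The 4 were 1.80-fold, 1.70-fold, 1.92-fold and 1.84-fold above the control. SEC61A1, the pore of the channel, and SEC61B, a small subunit of it, differed from the control by 0.06 to 0.34, and SSR1, a subunit of the translocon-associated protein complex, by 0.12 to 0.34. In these last 3 genes both miR-17 libraries were further above the control than both let-7a libraries.

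In ER-associated degradation, 9 of the 10 genes were tested, and the medians were 0.14, 0.14, 0.16 and -0.04. Above the control were 9 of the 9 with native let-7a, 7 with its methylated form, 5 with native miR-17 and 3 with its methylated form. The shares of all genes tested above it were 49.9%, 41.0%, 51.5% and 42.1% in that order. EDEM3, a mannosidase that marks misfolded glycoproteins, had 15.0 TPM with native let-7a, 16.3 with its methylated form, 12.2 with native miR-17, 11.1 with its methylated form and 10.3 in the control. Both let-7a libraries were the highest, at 1.42-fold and 1.53-fold above the control, and both miR-17 libraries lay nearer to it, at 1.17-fold and 1.07-fold. Its relative EDEM1 had 19.8, 21.2, 17.4 and 15.7 TPM in the same 4 libraries and 18.4 TPM in the control, and EDEM2 had 23.5, 25.0, 25.7 and 27.4 TPM and 22.6 TPM in the control. The 3 mannosidase-family genes thus did not share an order: EDEM1 and EDEM3 were higher with let-7a than with miR-17, and EDEM2 was highest with methylated miR-17.

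The ligase scaffold SEL1L had 38.8, 40.6, 33.6 and 30.2 TPM in the 4 microRNA libraries and 35.1 TPM in the control, above the control with both let-7a forms and below it with both miR-17 forms. The ligase SYVN1 was above the control by 0.18, 0.14 and 0.16 with native let-7a, methylated let-7a and native miR-17, and at -0.04 with methylated miR-17. HERPUD1, a membrane protein that recruits substrates to the ligase, was above the control in all 4, by 0.46, 0.15, 0.39 and 0.31. The derlins, which form part of the retrotranslocation channel, were on both sides of the control, DERL1 between -0.18 and 0.07 and DERL2 between -0.19 and 0.28. OS9, a lectin that delivers glycoproteins to SEL1L, differed by -0.04 to 0.18.

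The sensors were among the lowest of the 35 genes in level. ATF6, the membrane-bound transcription factor, had 28.5 TPM with native let-7a, 26.1 with its methylated form, 31.7 with native miR-17, 27.1 with its methylated form and 22.5 in the control. All 4 were above the control, by 0.33, 0.21, 0.48 and 0.26. ERN1, which encodes IRE1, had 7.9, 7.8, 10.1 and 8.4 TPM in the same 4 libraries and 8.3 TPM in the control, with native miR-17 alone apart at 0.26. EIF2AK3, which encodes PERK, had 16.5, 18.9, 16.2 and 14.4 TPM and 20.2 TPM in the control. It was below the control in all 4, by -0.28, -0.09, -0.30 and -0.46. XBP1, the transcription factor that IRE1 activates by splicing, had 193.7, 167.0, 210.0 and 200.5 TPM and 181.5 TPM in the control, with methylated let-7a the 1 library below the control. PPP1R15A, which encodes the phosphatase subunit GADD34 that ends the PERK signal, was within 0.13 of the control in all 4. The 3 sensors therefore lay in different positions: ATF6 above the control, EIF2AK3 below it, and ERN1 near it except with native miR-17.

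The methylated forms were set against the native forms directly. Between methylated and native let-7a, 0 of the 34 genes were at least 1.5-fold higher, where 2.18% of all genes were, and 0 were at least 1.5-fold lower, where 2.30% were. In this comparison 16 of the 34 were higher, against 39.8% of all genes, and the median difference was -0.03, as it was over all genes. The largest differences were ERO1L at 0.33, with 45.3 TPM with methylated let-7a and 35.9 TPM with native let-7a, HERPUD1 at -0.31, with 109.9 and 136.7 TPM in that order, and SDF2L1 at -0.30, with 106.4 and 131.5 TPM.

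Between methylated and native miR-17, 0 of the 34 genes were at least 1.5-fold higher, where 1.54% of all genes were, and 0 were at least 1.5-fold lower, where 2.62% were. Of the 34, 5 were higher with methylated miR-17, where 28.4% of all genes were, 28 were lower and 1 was equal. The median difference was -0.12, against -0.09 over all genes, so that all genes tested leaned the same way. HYOU1 was the lowest at -0.36, with 136.6 TPM with methylated miR-17 and 175.1 TPM with native miR-17. HSP90B1 followed at -0.29, with 764.9 and 934.3 TPM in that order, then ERN1 at -0.24 and HSPA5 at -0.23. SDF2L1 was the highest at 0.11. All 5 genes of oxidative folding and all 5 sensors and regulators were lower with the methylated form, with medians of -0.11 and -0.16, though PDIA6 at -0.08 and XBP1 at -0.07 were above the median of all genes.

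Seed matches were counted in the longest annotated 3′ UTR of each gene (GENCODE 29), over the 12020 tested genes with one of at least 50 bases, among them all 34 genes that reached a mean of 1 TPM. DERL3, left out for its low level, also had a 3′ UTR, with an extended let-7a match and no miR-17 match. A match was CTACCTC or TACCTCA for let-7a and GCACTTT or CACTTTA for miR-17, the complements of seed bases 2 to 8, or of bases 2 to 7 with an A opposite base 1, and an extended match joins both. A match is a description of the letters, and binding was not measured. Let-7a matches were found in 6 of 34 genes (17.6%), where 17.9% of all genes had one, and miR-17 matches in 9 (26.5%), where 31.5% of all genes did. Among the 34, extended matches were found for let-7a in EDEM3 (2.94%, against 4.37% of all genes) and for miR-17 in DERL2 and SERP1 (5.88%, against 5.52%).

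Genes with let-7a matches lay on both sides of the control, 2 of 6 below it with native let-7a and 3 of 6 with its methylated form. Of all 14180 genes tested, 6790 and 7950 were below it in that order. The 6 genes (HSPA5, DNAJB9, ERO1L, HERPUD1, EDEM3 and ERN1) had medians of 0.15 with native let-7a and 0.04 with methylated let-7a, against 0.13 and 0.14 for the genes without. Over all genes searched the medians were -0.074 and -0.075 with a match, against 0.02 and -0.04 without. The 9 genes with miR-17 matches (HSPA5, DNAJB9, ERO1L, SEL1L, EDEM1, DERL2, SSR1, SERP1 and ATF6) had medians of -0.06 with native miR-17 and -0.15 with its methylated form, against 0.20 and 0.02 for those without. Over all genes searched these medians were -0.09 and -0.21 with a match, against 0.05 and -0.02 without. Of the 9, 5 were below the control with native miR-17 and 6 with its methylated form, where 6598 and 7985 of all 14180 genes tested were. SERP1, with an extended miR-17 match and a further match, was above the control with both miR-17 forms, and EDEM3, with an extended let-7a match, was above it with both let-7a forms. ERO1L had 2 let-7a and 2 miR-17 matches and was below the control with all 4 microRNAs. Against the other microRNA's libraries instead of the control, ERO1L was at 0.10 with native and 0.42 with methylated let-7a. Its sign did not change with either miR-17 form. A part of the matches in these differences was not tested.

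These sites are shown because they lie in genes that differed most from the control, with the matched letters in capitals and 10 bases before them (positions counted from 1 at the first base of the 3′ UTR). Matches to bases 2 to 7 with an A that lack base 8, 1 for let-7a and 1 for miR-17 in ERO1L, are not shown.
EDEM3, let-7a (chromosome 1, bases 2537 to 2544 of 3832): aacatctggtCTACCTCAgttaaatgt
ERO1L, let-7a (chromosome 14, bases 3344 to 3350 of 3654): taattacaacCTACCTCtattgtatgt
ERO1L, miR-17 (chromosome 14, bases 2679 to 2685 of 3654): tctgcctgttGCACTTTtcttggttgt
SERP1, miR-17 (chromosome 3, bases 421 to 428 of 2464): atatagctagGCACTTTAttactcttt
SERP1, miR-17, second match (chromosome 3, bases 928 to 934 of 2464): atgttaaataGCACTTTtaatagcaaa

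A further 3′ UTR heptamer, GGTTGTG, was searched because earlier results on these same libraries had pointed to it, so its values here are no independent evidence. It was found in 6 of 34 genes (17.6%), CANX, EDEM3, DERL2, SERP1, ATF6 and ERN1, where 10.5% of all genes searched had it. The 6 had median differences from the control of 0.41 with native let-7a, 0.41 with its methylated form, 0.37 with native miR-17 and 0.18 with its methylated form. The 28 without had 0.11, 0.13, 0.17 and -0.04 in that order. Over all genes searched, those with the heptamer had medians of 0.05, 0.02, 0.06 and -0.07, and those without 0.0, -0.05, 0.00 and -0.07. CANX and SERP1, the pair furthest above the control, were also the 2 genes with both an ERSE and the heptamer. The heptamer is in capitals below for CANX, SERP1, EDEM3 and ATF6. Their mean differences over the 4 microRNA libraries were 1.17, 0.86, 0.36 and 0.32. The sites of DERL2 and ERN1, with mean differences of -0.02 and 0.03, are not shown.
CANX (chromosome 5, bases 232 to 238 of 2281): ttaacataatGGTTGTGaaatgtaaca
SERP1 (chromosome 3, bases 1623 to 1629 of 2464): tctgttttatGGTTGTGctaaattcat
EDEM3 (chromosome 1, bases 1497 to 1503 of 3832): cctaaaacacGGTTGTGaggtactgat
ATF6 (chromosome 1, bases 3844 to 3850 of 5416): accaagcttaGGTTGTGaaacttgaca

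**Figure D4:**
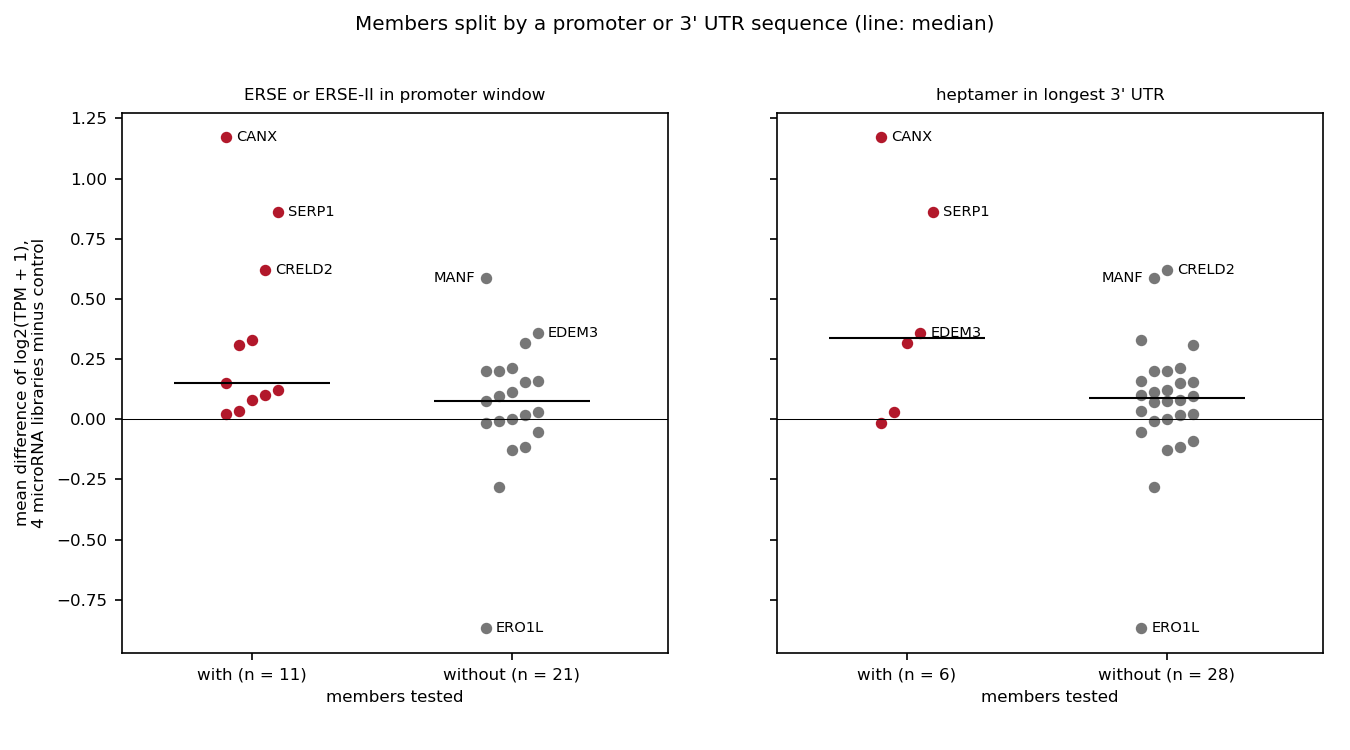
Mean difference of log2(TPM + 1) of the 4 microRNA libraries from the control (vertical axis) for genes with and without ERSE or ERSE-II in the promoter window (left) and with and without the heptamer in the 3′ UTR (right), each point 1 gene and each line a median. CANX (1.17) and SERP1 (0.86) are in the group with the sequence in both panels, and the groups overlap in both.

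Genes of the same pathway outside the 35 were summarised by list, with the lowest and highest of each list by their mean difference over the 4 microRNA libraries. Of 81 listed genes outside the 35, 79 were tested (CREB3L1 was below 1 TPM and SELS was not matched), and their medians were 0.10 with native let-7a, 0.05 with its methylated form, 0.15 with native miR-17 and 0.09 with its methylated form. At least 1.5-fold higher were 3, 0, 4 and 2 of the 79, against 4.20%, 3.34%, 6.50% and 5.33% of all genes tested. At least 1.5-fold lower were 1, 0, 1 and 2, against 3.86%, 2.98%, 5.93% and 10.1% of all genes. The 13 other ER folding factors had medians of 0.18, 0.14, 0.14 and 0.11. QSOX1, a sulfhydryl oxidase, had 44.4, 55.8, 53.2 and 43.0 TPM in the 4 microRNA libraries and 70.9 TPM in the control, so that this oxidase too was below the control in all 4. Its mean difference was -0.53, followed from below by the isomerase PDIA5 at -0.22, and the prolyl isomerases FKBP14 at 0.34 and PPIB at 0.26 were the highest. The 14 genes of N-glycosylation and glycan trimming had medians of -0.06, 0.03, 0.11 and -0.01. CLGN, the testis relative of calnexin, had 2.2, 4.6, 5.0 and 3.8 TPM and 2.8 TPM in the control. The oligosaccharyltransferase subunit OSTC at 0.39 and CLGN at 0.33 were the highest, and GANAB, a glucosidase, at -0.22 and UGGT1, the folding sensor that reglucosylates chains, at -0.19 the lowest. The 16 other translocation and export genes had medians of 0.15, 0.02, 0.21 and 0.27. SRPR, the receptor of the signal recognition particle, had 76.5, 65.2, 89.6 and 81.6 TPM and 56.2 TPM in the control. SEC11C, a signal peptidase subunit, at 0.49 and SRPR at 0.46 were the highest, and SEC62 at -0.18 and SPCS3 at -0.04 the lowest. The 15 other degradation genes had medians of 0.01, -0.01, -0.03 and -0.08, and none was past 1.5-fold in any of the 6 comparisons. HERPUD2 was the lowest at -0.20, and the ligase RNF5 at 0.18 and FAM8A1 at 0.21 were the highest.

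The ATF4 and CHOP branch, which PERK and other eIF2α kinases drive, had medians of 0.33, 0.11, 0.29 and 0.21 over 12 genes. CHAC1, a glutathione-degrading enzyme, had 104.2 TPM with native let-7a, 63.9 with its methylated form, 133.0 with native miR-17, 119.2 with its methylated form and 59.6 in the control. ASNS, asparagine synthetase, had 320.1, 234.9, 386.8 and 369.9 TPM in the same 4 libraries and 194.9 TPM in the control. In both genes methylated let-7a was the microRNA library nearest to the control. TRIB3, an inhibitor of ATF4, had 412.2, 326.2, 313.4 and 305.1 TPM and 256.6 TPM in the control. VEGFA, a growth factor also known as hypoxia-responsive, had 27.2, 28.7, 20.6 and 18.0 TPM and 32.6 TPM in the control. By mean difference CHAC1 at 0.76 and ASNS at 0.72 were the highest of the 12, and VEGFA at -0.47 and DDIT4 at -0.23 the lowest. Between methylated and native let-7a the branch had a median of -0.20, against -0.03 over all genes tested. In the branch 10 of 12 genes were lower, where 8097 of all 14180 genes were, and CHAC1 was at -0.70. Of 9 tested genes of ATF6 activation and related regulators, with medians of 0.11, 0.01, 0.18 and 0.02, none was past 1.5-fold in any of the 6 comparisons, and they ran between CREBZF at -0.30 and WFS1 at -0.19 on the low side, and CREB3L2 at 0.20 and CREB3 at 0.25 on the high side.

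**Figure D5:**
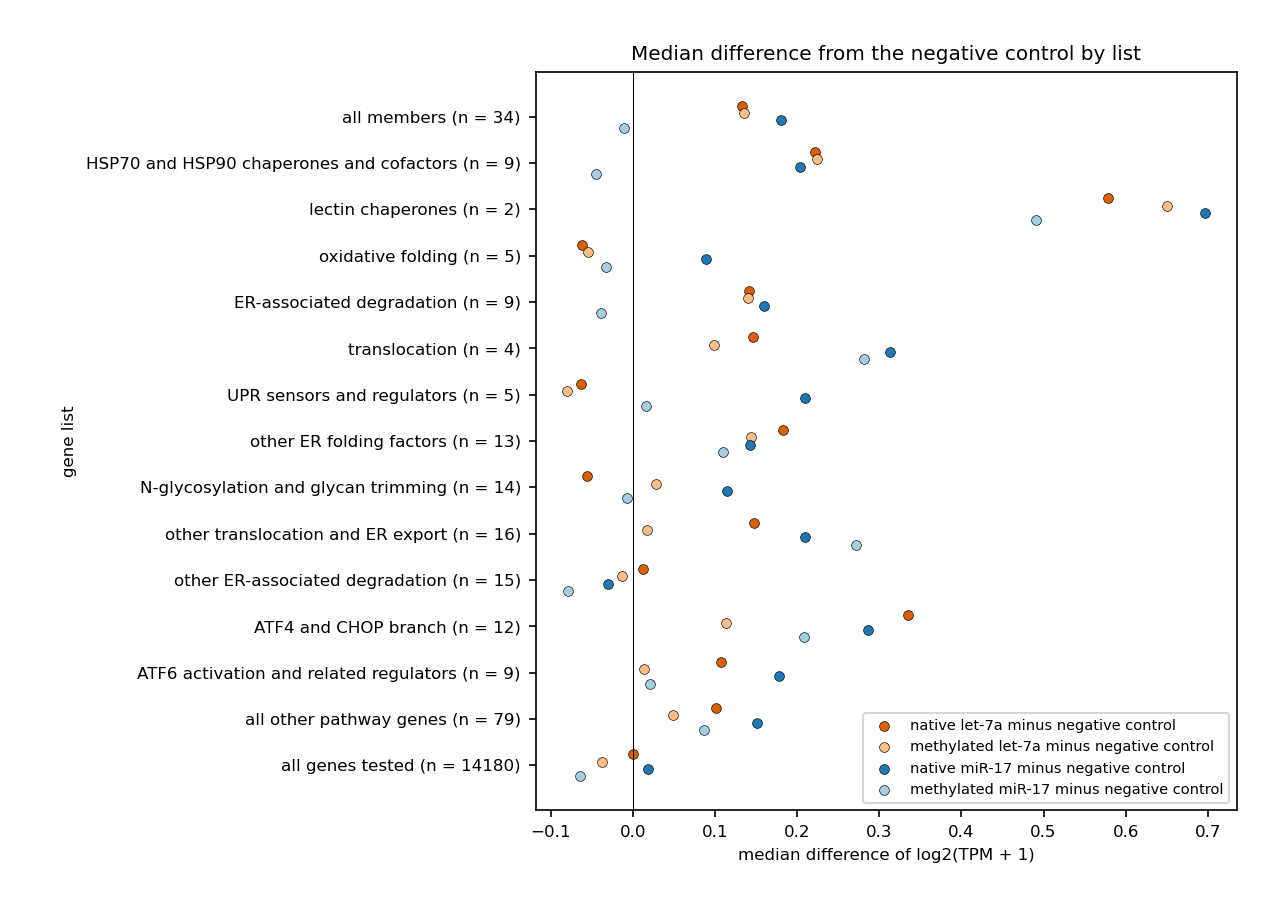
Median difference of log2(TPM + 1) from the negative control (horizontal axis) for each gene list (rows, with the number of genes tested) in the 4 microRNA libraries (colours), 1 library per group. Over all 14180 genes tested the medians lie between -0.06 and 0.02, those of the ATF4 and CHOP branch between 0.11 and 0.33, and those of the translocation genes between 0.10 and 0.31.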

How the data were processed

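RNA was measured in 5 libraries of Dicer-knockout HCT116 cells, 1 per group. Per the labels' protocols, Isogen was used to extract total RNA, and libraries were made with a TruSeq stranded kit after Ribo-Zero depletion. What the authors deposited was a single table of TPM per gene, rounded to 1 decimal, with hg19 as the build per the submitters' processing notes. The sources used here name no aligner, counter or annotation. Since TPM columns add up to one fixed total, depth is unknown, counts cannot be recovered, and neither intervals nor detection floors are given.

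Differences are of log2(TPM + 1), over the 14180 genes whose mean was 1 TPM or more. The pseudocount of 1 TPM understates the change of low genes. With 1 library per group there is no test, and folds of 1.5 and 2 describe size only. The 6 comparisons, the members and the lists were chosen with earlier results of these data known. Genes described in full are those past 1.5-fold in any comparison, the 3 of highest mean TPM, the 3 sensors and XBP1, and other pathway genes are named where past 1.5-fold or among the 2 lowest and 2 highest of their list by mean difference, except for 1 gene that is not reported here. The 7 alternatives were pseudocounts of 0.1 and 5 TPM, no filter, a minimum mean of 5 TPM, centring on the median of all genes tested, leaving out 37 mitochondrial and 90 ribosomal protein genes, and the other microRNA's libraries as reference. The difference script was tested on simulated data.

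Promoters and microRNAs were read from RefSeq (GRCh38.p14) and 3′ UTRs from GENCODE 29, for sequence only. Promoters were matched by symbol, or failing that by gene identifier or synonym, and 3′ UTRs by gene identifier. Protein sequences were not used here. Computation used Python 3.11.15 with pandas 2.3.3, NumPy 2.4.6 and matplotlib 3.10.9.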

Additional observations from a re-analysis of the deposited data

Results flagged for a closer look

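In 4 genes both let-7a libraries lay on one side of the control and both miR-17 libraries on the other, and with 1 library per group the difference between the microRNAs was not tested. How many of all genes tested split this way was not counted, so no background share stands beside the 4. The mean difference of the let-7a libraries minus that of the miR-17 libraries was -0.30 in P4HB, 0.31 in SEL1L, 0.29 in EDEM1 and -0.21 in ERN1, on the log2 scale. In ERN1 methylated miR-17 was above the control by 0.0154 only, at 8.4 against 8.3 TPM, which differ in the last decimal given. In 4 other genes the methylated form lay on one side of the native form for let-7a and on the other for miR-17, by at least 0.1 each way, and this was not tested either. The share of all genes tested that did so was not counted. Over all genes tested the median of methylated minus native was -0.03 for let-7a and -0.09 for miR-17. The values given next are not centred on these medians. The difference for let-7a minus that for miR-17 was 0.43 in HSP90B1 (0.14 and -0.29), -0.42 in SDF2L1 (-0.30 and 0.11), 0.24 in EDEM3 (0.11 and -0.13) and 0.34 in EIF2AK3 (0.19 and -0.16).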

How the results depend on the processing

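No paired analysis was possible because each group had 1 library and the labels give no replicate numbers. Of 520 values of the 13 genes described in full under the alternatives, 23 changed sign, 18 of them among the 52 with the other microRNA's libraries as reference and 5 with the other alternatives (4 with centring and 1 without mitochondrial and ribosomal protein genes), these last in values under 0.1 in size. Of the values past 1.5-fold with the control as reference, 6 changed sign, all with the other microRNA's libraries: with native let-7a, CANX at -0.0387, ERO1L at 0.10 and SERP1 at -0.0618, with methylated let-7a SERP1 at -0.15, with native miR-17 CRELD2 at -0.0241, and with methylated miR-17 CANX at -0.11. The other 12 sign changes with that reference were in smaller differences, among them ERO1L with methylated let-7a at 0.42, EIF2AK3 and ATF6 with both let-7a forms, and EDEM3 with both miR-17 forms. With that reference 0 genes were at least 1.5-fold higher in any of the 4 microRNA libraries and 0 were at least 1.5-fold lower with native let-7a and both forms of miR-17. The median became 0.0044 with native miR-17 and -0.13 with its methylated form. The reference holds other libraries by construction, so these values show how far each difference rests on the control library. With a pseudocount of 5 TPM, 2 genes in place of 4 were at least 1.5-fold higher with methylated let-7a, since a larger pseudocount shrinks the folds of low genes. Centring on all genes gave medians of 0.0541 for methylated miR-17 against the control and 0.0066 for methylated against native let-7a, and leaving out mitochondrial and ribosomal protein genes gave 0.0059 for that same comparison of let-7a forms. No alternative moved the median of all genes by more than 0.0886. The unknown depth and the single library per group limit every value, most of all those of genes under 20 TPM such as EDEM3 and ERN1.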
